A study of Mus musculus with 4 samples.

Results

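The 34 genes described here build or specify the sensory hair cell of the inner ear. They were chosen by name, with no measured value in the rule, but with earlier results of these data known. They cover 5 transcription factors, 5 unconventional myosins and 9 proteins of the actin core of stereocilia. The others are 7 proteins of the links between stereocilia, 6 proteins of the mechanotransduction channel complex and 2 outer hair cell genes. All 34 were found by symbol among the 24411 genes of the deposited count table. Of these, 24 had 20 or more estimated counts in all over the 4 libraries and were used, and 20 passed the filter on low counts that precedes the test.

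The libraries were poly-A RNA from mouse cochlear tissue at postnatal day 7, a stage before the onset of hearing. Every animal carried a knockout allele of Otof, which encodes otoferlin, the calcium sensor that inner hair cells need for transmitter release. The control pools were heterozygous for it and the others homozygous, so wild-type animals entered neither group. Each pool held the cochleas of 2 to 3 pups, with 2 pools per genotype. The sources used here do not give the structure of the Otof allele or the strain.

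Stereocilia are actin-filled protrusions on the top of a hair cell, arranged in rows of graded height as the hair bundle. Fine tip links made of cadherin 23 and protocadherin 15 join a short stereocilium to its taller neighbour, and sound pulls on these links to open channels that contain TMC1 or TMC2. Transcription factors such as ATOH1, POU4F3 and GFI1 set up and maintain the hair cell, and outer hair cells add the motor protein prestin. Several proteins of the bundle, radixin and myosin VI among them, are also made by many other cells.

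The libraries held 36060278 and 32453536 estimated counts in heterozygous pools 1 and 2, and 38090724 and 31509350 in homozygous pools 1 and 2. A count of 0 allows up to 3 counts, or 0.0776 to 0.0944 counts per 1000000 (CPM) in these libraries, for counting error only. Otof itself had 86 and 83 counts in heterozygous pools 1 and 2 and 5 and 9 counts in homozygous pools 1 and 2. Its order thus matched the labels, with a log2 fold change of -3.62 ± 0.46 (SE). The adjusted p of Otof was 1.53e-05 by DESeq2 and 0.116 by edgeR, so edgeR, the main test below, did not call it. The pools differed in sex-linked transcripts, with 5771, 6733, 2 and 19085 counts of Xist and 2700, 1872, 3878 and 0 counts of Ddx3y in heterozygous pools 1 and 2 and homozygous pools 1 and 2. The part of this difference in the results below was not tested. Nothing in the labels says that the pools came from separate litters, so p-values measure the spread between these pools. In a bulk sample, fewer cells of a type and less RNA per cell cannot be told apart.

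Several genes that define a hair cell had few or no counts in all 4 pools. Atoh1, the factor that starts hair cell formation, and Myo3a, a myosin of the stereocilium tip, were listed at 0 in every pool. The sources used here do not give the annotation behind the counts, so an exact 0 says only how these genes are listed. In all, 10 members had under 20 counts over the 4 libraries and are given as counts with no fold change. Pou4f3, which keeps hair cells alive, had 7 counts in heterozygous pool 1 and 0 in the other 3 pools. Lhx3, a LIM homeobox factor of hair cells, had 1 count in every pool. Slc26a5, which encodes prestin, had 7 and 3 counts in heterozygous and 6 and 0 counts in homozygous pools. Ocm, the outer hair cell calcium buffer oncomodulin, had 4 and 3 counts in heterozygous and 0 and 0 in homozygous pools. These values scatter at the level of a few counts, and no difference between the genotypes was detectable in them at this depth.

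The remaining low members belong to the bundle. Strc, stereocilin of the top connectors between stereocilia, had 3 and 0 counts in heterozygous and 6 and 3 counts in homozygous pools. Loxhd1, a protein needed for transduction in mature hair cells, had 1 and 1 against 0 and 0 counts. Grxcr1, a glutaredoxin-like protein that shapes stereocilia, had 4 and 5 against 0 and 4 counts, and Myo3b, the relative of Myo3a, 5 and 3 against 6 and 5. At 19 counts in all Myo3b lay just under the limit of 20, and Espnl lay just above it at 28. Summed over these 10 genes, the pools held 32, 16, 19 and 13 counts, against 22102, 21552, 23705 and 19441 counts for all 34. The values thus go against reading the list as a whole as a measure of hair cells in these libraries, and it is described gene by gene.

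**Figure D1:**
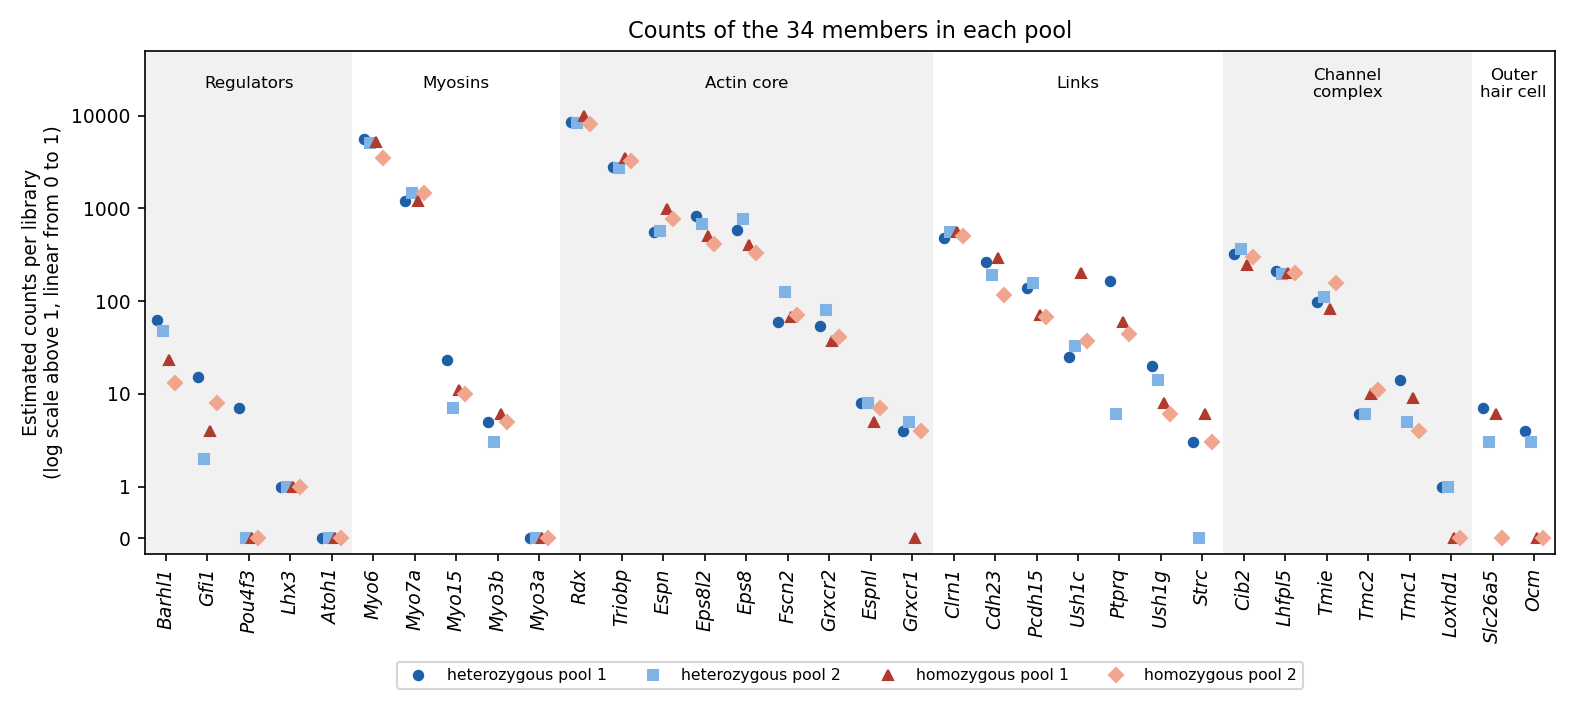
Estimated counts per library (vertical axis, log scale above 1 and linear from 0 to 1) of the 34 genes, grouped by role, with 1 symbol per pool. Rdx, Myo6 and Triobp sit at the top in all 4 pools, while Atoh1 and Myo3a sit at 0 and 8 more genes have under 20 counts in all.

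A few widely expressed genes carried most of the signal. Rdx, Myo6 and Triobp together held between 74.9% and 78.9% of the counts of the 34 genes in a pool. To compare genes, CPM were divided by the length of the annotated exons in kb. On that scale Rdx, radixin, which ties actin to the membrane, was highest at 54.3 ± 3.6 CPM per kb in heterozygous pools (mean ± SD, n = 2). Myo6, a motor at the base of stereocilia that moves toward the minus end of actin, followed at 13.0 ± 0.088 CPM per kb. The next levels were 7.09 ± 1.2 CPM per kb for Cib2, 6.71 ± 0.40 for Triobp, 4.66 ± 1.0 for Myo7a, 4.17 ± 0.22 for Eps8l2 and 3.996 ± 0.70 for Clrn1. Cib2 and Triobp lay within the sum of their SDs of each other, as did Myo7a, Eps8l2 and Clrn1 as neighbours, while Triobp and Myo7a lay further apart. Lhfpl5 stood at 2.53 ± 0.060, Espn at 2.04 ± 0.19 and Eps8 at 1.63 ± 0.43 CPM per kb. Near the low end of the genes used were the pore-forming channel genes, with 0.0556 ± 0.0044 CPM per kb for Tmc2 and 0.0383 ± 0.023 for Tmc1, levels that do not differ beyond their spread. Espnl stood between them at 0.0438 ± 0.0035 CPM per kb, and Myo15 below them at 0.034 ± 0.024.

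The comparison of homozygous with heterozygous pools was fitted over all 15359 genes that passed the filter. edgeR's quasi-likelihood test, the main test, called 0 of the 34 genes and 0 genes in all at an adjusted p of 0.05 (0.0% of genes tested, smallest adjusted p 0.101). At an unadjusted edgeR p under 0.05, 1 gene of the list was higher and 6 were lower, beside 4.36% and 8.91% of all genes tested. DESeq2, the tool the submitters name, called 4 of the 20, beside 4.46% of all genes tested in either direction. Of these 4, Espn rose and Eps8, Eps8l2 and Pcdh15 fell. These are 5.0% of the 20 for the higher and 15% for the lower direction, against 1.05% and 3.41% of all genes tested. The words rose and fell are used only for genes that passed DESeq2. The shares concern the 20 genes that passed the filter and say nothing of the other 14.

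By level, 7 of the 20 genes had both homozygous pools below both heterozygous pools, 3 had both above, and in 10 the genotypes overlapped. Of all genes tested, 24.5% lay below and 21.6% above without overlap. Over the 24 genes with 20 or more counts, 8 lay below and 4 above, beside 24.4% and 21.3% of all genes with that many counts. The median log2 fold change of the 20 was -0.37, beside 0.0087 over all genes tested, and 15 of 20 were below 0, beside 48.2% of all genes. An exact permutation test of a single gene with 2 pools against 2 cannot go below p = 0.333, so none was run. Leaving out a pool took the median of the list between -0.57 and -0.23.

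**Figure D2:**
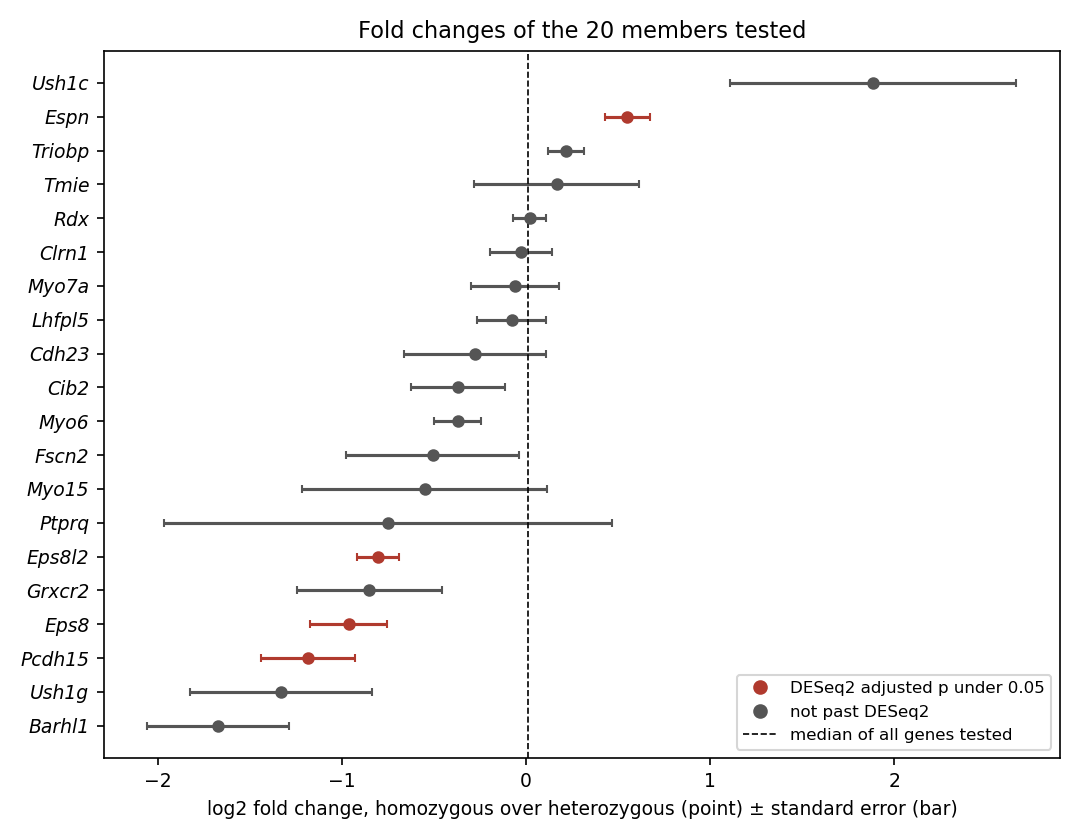
log2 fold change, homozygous over heterozygous (horizontal axis), of the 20 genes tested, as the edgeR estimate (point) with its standard error (bar). Red marks Espn, Eps8l2, Eps8 and Pcdh15, which passed DESeq2, and the dashed line is the median of all genes tested, 0.0087.

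Among the regulators only Barhl1 was tested, a homeobox factor that hair cells need to survive and that cerebellar granule cells also make. Barhl1 (chromosome 2, 28907679 to 28916668, minus strand, GRCm38) had 62 and 47 counts in heterozygous and 23 and 13 counts in homozygous pools, or 1.74 and 1.48 against 0.595 and 0.405 CPM. Both homozygous pools lay below both heterozygous pools. The log2 fold change was -1.67 ± 0.38 (SE), with an adjusted p of 0.214 by edgeR and 0.146 by DESeq2, so it passed neither. It lay between -1.99 and -1.42 with any pool left out. Gfi1, a zinc finger repressor downstream of the first regulators, had 15 and 2 counts in heterozygous and 4 and 8 counts in homozygous pools, which overlapped.

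Markers of cerebellar granule cells were listed because Barhl1 is also made there. Of 11 tested, 6 had both homozygous pools below both heterozygous pools and 1 had both above. Over all genes tested these shares were 24.5% and 21.6%. By DESeq2, 2 of the 11 fell and 0 rose, beside 3.41% and 1.05% of all genes tested. The median log2 fold change of the 11 was -0.59. The 2 that fell were Cbln1 (-1.95 ± 0.35, DESeq2 adjusted p = 2.26e-05) and Cbln3 (-1.75 ± 0.20, DESeq2 adjusted p = 1.61e-06), secreted synaptic organisers of granule cells. Gabra6, a receptor subunit that defines mature granule cells, had 17 and 6 against 1 and 0 counts, and Barhl2 and Pcp2 had under 20 in all. The summed level of the list was 324 and 313 CPM in heterozygous and 316 and 311 CPM in homozygous pools. Nfia and Zic2 held the most counts of the list. Nfia had 3908 and 3730 counts in heterozygous and 4339 and 3960 in homozygous pools, and Zic2 3260 and 2256 against 4248 and 3228. Relative to the heterozygous mean, the list's median lay at -0.26 in homozygous pool 1 and -1.02 in homozygous pool 2 on the log2 scale. The part of such cells in the Barhl1 value was not tested.

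Among the myosins, 3 were tested and 0 passed DESeq2, beside 4.46% of all genes tested. Myo6 (chromosome 9, 80165031 to 80311729, plus strand) was at 156.6 and 158 CPM in heterozygous and 136 and 107.5 CPM in homozygous pools. Its homozygous pools were both lower, with pool 2 the lowest. The log2 fold change was -0.37 ± 0.13, with an adjusted p of 0.341 by edgeR and 0.233 by DESeq2. Homozygous pool 1 bears on that call: without it the log2 fold change by DESeq2 was -0.55 and the adjusted p 0.00947, and without homozygous pool 2 they were -0.20 and 0.99996.

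Myo7a, the motor that holds the upper end of the tip link, was at 33.6 and 46.1 CPM in heterozygous and 31.2 and 45.4 CPM in homozygous pools. The spread within each genotype exceeded the difference between them, and the log2 fold change was -0.06 ± 0.24. Myo15, which carries cargo to the tips of stereocilia, had only 23 and 7 counts in heterozygous and 11 and 10 counts in homozygous pools. These overlapped, with a log2 fold change of -0.55 ± 0.66 that turned to 0.43 without heterozygous pool 1.

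The actin core, with 7 of the 20 genes tested, held 3 of the 4 DESeq2 calls, 1 higher and 2 lower. Over all genes tested, 1.05% were called higher and 3.41% lower. Espn, espin, which bundles the actin of stereocilia, lies on chromosome 4 (152120331 to 152152371, minus strand). It was at 15.8 and 18.0 CPM in heterozygous and 25.7 and 23.8 CPM in homozygous pools. Both homozygous pools were above both heterozygous pools, and Espn rose 1.46-fold (log2 fold change 0.55 ± 0.12, adjusted p = 0.0386 by DESeq2 and 0.207 by edgeR). The DESeq2 call was lost with each pool left out in turn, with a log2 fold change of 0.46 to 0.64.

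Eps8, a capping and bundling protein at the tips of the tallest stereocilia, lies on chromosome 6 (137477245 to 137654876, minus strand). It was at 16.4 and 24.0 CPM in heterozygous and 10.4 and 10.3 CPM in homozygous pools. The homozygous pools were close to each other and below both heterozygous pools, which differed more among themselves. Eps8 fell 1.95-fold (log2 fold change -0.96 ± 0.21, adjusted p = 0.00742 by DESeq2 and 0.206 by edgeR). The DESeq2 call held without heterozygous pool 1 (adjusted p = 0.0236) and was lost without heterozygous pool 2 (0.961), homozygous pool 1 (0.105) or homozygous pool 2 (0.199).

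Eps8l2, a relative of Eps8 in the shorter rows, lies on chromosome 7 (141338880 to 141363020, plus strand). It was at 23.3 and 21.6 CPM in heterozygous and 12.9 and 12.8 CPM in homozygous pools. Pools of 1 genotype lay close together, without overlap between genotypes. Eps8l2 fell 1.75-fold (log2 fold change -0.80 ± 0.11, adjusted p = 0.00037 by DESeq2 and 0.121 by edgeR). With each pool left out in turn the log2 fold change by DESeq2 was -0.86 to -0.74 and the call was lost every time, with adjusted p from 0.0863 to 0.452.

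Exons of the antisense gene B230206H07Rik cover 32.2% of the exon length of Eps8l2. B230206H07Rik was the more abundant, with 4569 and 4034 counts in heterozygous and 3002 and 2256 counts in homozygous pools. It fell by DESeq2 (log2 fold change -0.79 ± 0.08, adjusted p = 1.88e-08), by nearly the same factor as Eps8l2. The counts of Eps8l2 were 18.1% and 17.0% of those of B230206H07Rik in heterozygous pools and 16.6% and 18.2% in homozygous pools. The rest of the Eps8l2 exon length lies outside that gene. The sources used here do not say whether the libraries kept strand. Without strand, reads from the shared stretch could go to either gene, and how much they add to the Eps8l2 value was not tested. The authors' deposited table lists 343 genes, with a largest adjusted p of 0.00982 and a smallest absolute log2 fold change of 0.50, so the DESeq2 values of Espn and Pcdh15 lie outside its range. In the authors' deposited table Eps8 (log2 fold change -0.95) and Eps8l2 (-0.80) were the only 2 of the 34 genes, with adjusted p of 0.00631 and 0.000343. The authors' deposited table is named as one with outliers removed, without saying which, and it is not independent evidence.

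The other actin core genes did not pass DESeq2. Triobp, which bundles the rootlets that anchor stereocilia, was at 79.0 and 86.0 CPM in heterozygous and 89.97 and 102 CPM in homozygous pools. Its homozygous pools were both higher, by a log2 fold change of 0.22 ± 0.10. Rdx was at 240.4 and 264 CPM in heterozygous and 258 and 254 CPM in homozygous pools, which overlapped (0.02 ± 0.09). Grxcr2, a glutaredoxin-like partner in bundle shape, was at 1.52 and 2.52 CPM in heterozygous and 0.957 and 1.28 CPM in homozygous pools. These did not overlap (-0.85 ± 0.40). Fscn2, an actin crosslinker, was at 1.69 and 3.93 against 1.73 and 2.21 CPM, and its fold change of -0.51 ± 0.47 turned to 0.22 without heterozygous pool 2. Espnl, an espin-like protein, had 8 and 8 against 5 and 7 counts.

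**Figure D3:**
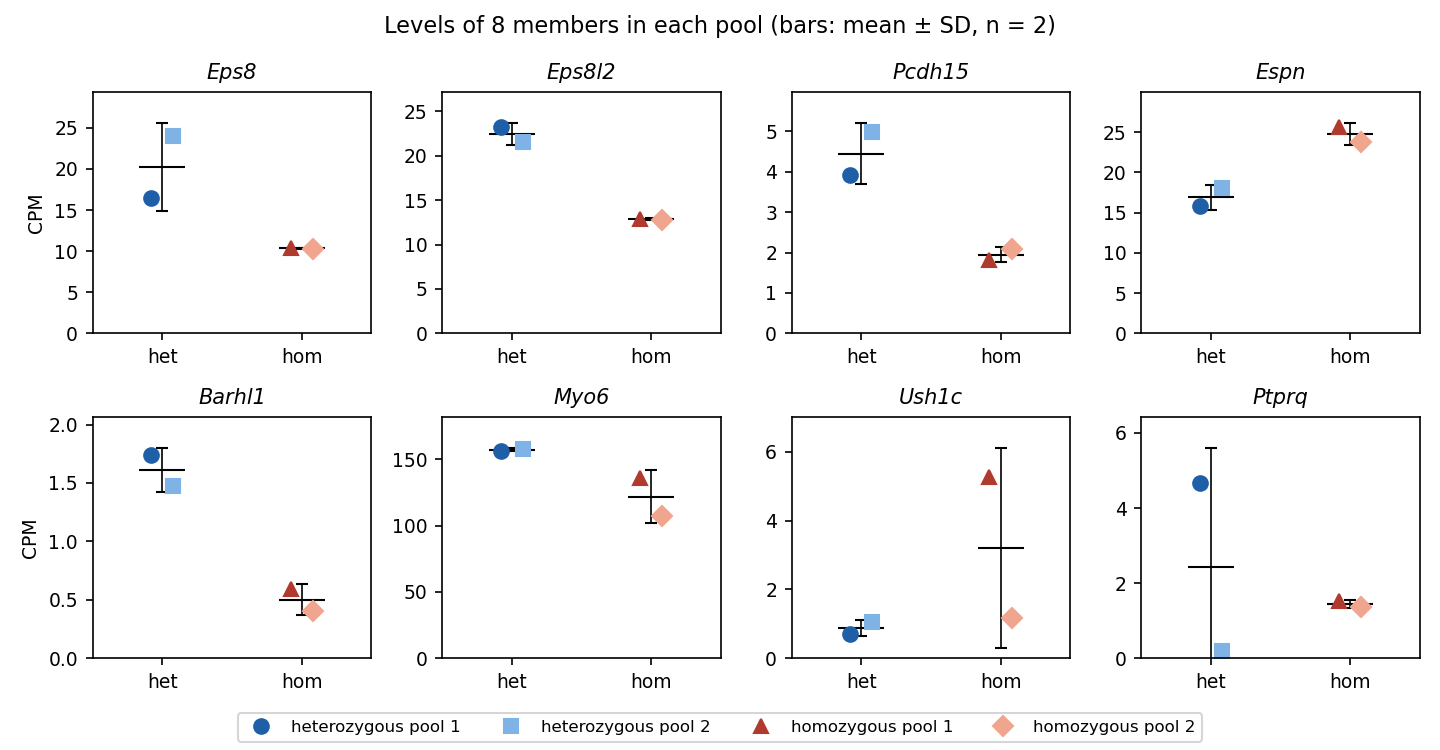
CPM (vertical axes, each from 0) of 8 genes in each pool, by genotype (het, heterozygous; hom, homozygous), with the mean and SD of 2 pools; a bar that would go below 0 is cut there. Eps8, Eps8l2, Pcdh15, Barhl1 and Myo6 have both homozygous pools below both heterozygous pools, Espn has both above, and single pools stand apart for Ush1c and Ptprq.

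Among the link genes, Pcdh15, the protocadherin of the lower end of the tip link, lies on chromosome 10 (73099342 to 74649737, plus strand). It was at 3.91 and 4.97 CPM in heterozygous and 1.81 and 2.09 CPM in homozygous pools. The genotypes did not overlap, and Pcdh15 fell 2.28-fold (log2 fold change -1.19 ± 0.26, adjusted p = 0.0469 by DESeq2 and 0.203 by edgeR). The DESeq2 call was lost with each pool left out in turn, with a log2 fold change of -1.34 to -1.01. Cdh23, the cadherin of the upper end of the same link, was at 7.51 and 5.94 CPM in heterozygous and 7.48 and 3.58 CPM in homozygous pools. Its genotypes overlapped (-0.28 ± 0.39), and without homozygous pool 2 the fold change was 0.16. Whether Pcdh15 and Cdh23 differed from each other in response was not tested.

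Pcdh15 is also made by precursors of oligodendrocytes. Of 20 central glia markers tested, 5 fell by DESeq2 and 0 rose, beside 3.41% and 1.05% of all genes tested. The median log2 fold change of these markers was -0.91. Their summed level was 19520.3 and 19489 CPM in heterozygous, 13334 CPM in homozygous pool 1 and 7889.7 CPM in homozygous pool 2, and no marker of this list was at 0 in all pools. Among those that fell were Mbp, a myelin protein (-1.001 ± 0.24, DESeq2 adjusted p = 0.000108), and Cspg5, a brain proteoglycan (-0.98 ± 0.23, DESeq2 adjusted p = 0.00327). Of the 20, 14 had both homozygous pools below both heterozygous pools and 1 had both above, beside 24.5% and 21.6% of all genes tested. Among the lower was Olig1, with 6486 and 7294 counts in heterozygous and 5484 and 1473 in homozygous pools. So were Gpr17, with 7023 and 8371 against 7019 and 1801, and Neu4, with 473 and 515 against 328 and 100. The precursor markers Pdgfra, Cspg4 and Olig2 went different ways and did not pass DESeq2. All of these were named after their values were seen. Pdgfra, the growth factor receptor of the precursors, which fibroblasts also make, was at 179.8 and 153 CPM in heterozygous and 183 and 187 CPM in homozygous pools, both homozygous pools being the higher (0.15 ± 0.11). Cspg4, a proteoglycan of precursors and pericytes, was at 38.4 and 31.7 against 32.6 and 28.0 CPM, which overlapped. Olig2, a factor of the oligodendrocyte lineage, was at 59.8 and 72.6 against 40.8 and 11.6 CPM, both homozygous pools being the lower (-1.33 ± 0.57). On the log2 scale, the median of the 20 glia markers relative to the heterozygous mean was -0.43 in homozygous pool 1 and -1.41 in homozygous pool 2. The part of such cells in the Pcdh15 value was not tested.

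The 2 genes with the largest standard errors among the 20 tested were also link genes. Ush1c, the scaffold protein harmonin, had 25 and 33 counts in heterozygous pools, 203 in homozygous pool 1 and 37 in homozygous pool 2. Homozygous pool 1 alone stood high. The log2 fold change was 1.89 ± 0.78 (adjusted p = 0.401 by edgeR and 0.226 by DESeq2), and 0.40 without that pool. Without homozygous pool 2 it was 2.61 with a DESeq2 adjusted p of 0.0296. Ptprq, a receptor phosphatase of the shaft connectors, had 166 counts in heterozygous pool 1 and 6 in heterozygous pool 2, against 59 and 44 in homozygous pools. Heterozygous pool 1 decided its direction: the log2 fold change was -0.75 ± 1.22 with all pools and 2.92 without that pool.

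Ush1g, the scaffold protein SANS that binds harmonin, had 20 and 14 counts in heterozygous and 8 and 6 counts in homozygous pools. It was lower in both homozygous pools (log2 fold change -1.33 ± 0.49) without passing DESeq2 (adjusted p = 0.76). Clrn1, the membrane protein clarin 1 of Usher syndrome, was at 13.5 and 17.3 CPM in heterozygous and 14.5 and 15.8 CPM in homozygous pools. Its homozygous values lay inside the heterozygous range, with a log2 fold change of -0.03 ± 0.17.

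Of the channel complex 3 genes were tested, and in all 3 the genotypes overlapped. Over all genes tested, only 24.5% lay below and 21.6% above without overlap. Lhfpl5, which links protocadherin 15 to the channel, was at 5.93 and 6.13 CPM in heterozygous and 5.17 and 6.26 CPM in homozygous pools (-0.08 ± 0.19). Tmie, a membrane protein the channel needs to open, was at 2.73 and 3.52 against 2.15 and 4.89 CPM (0.17 ± 0.45). Cib2, a calcium-binding partner of the TMC proteins, was at 8.97 and 11.4 against 6.34 and 9.41 CPM (-0.37 ± 0.25). Of the pore-forming genes, Tmc1 had 14 and 5 counts in heterozygous and 9 and 4 counts in homozygous pools. Tmc2, the channel of early postnatal cochlear hair cells, had 6 and 6 against 10 and 11 counts. Both were too low for the test filter. With a filter of 20 counts in all, edgeR gave log2 fold changes of -0.61 ± 0.74 for Tmc1 and 0.73 ± 0.57 for Tmc2.

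**Figure D4:**
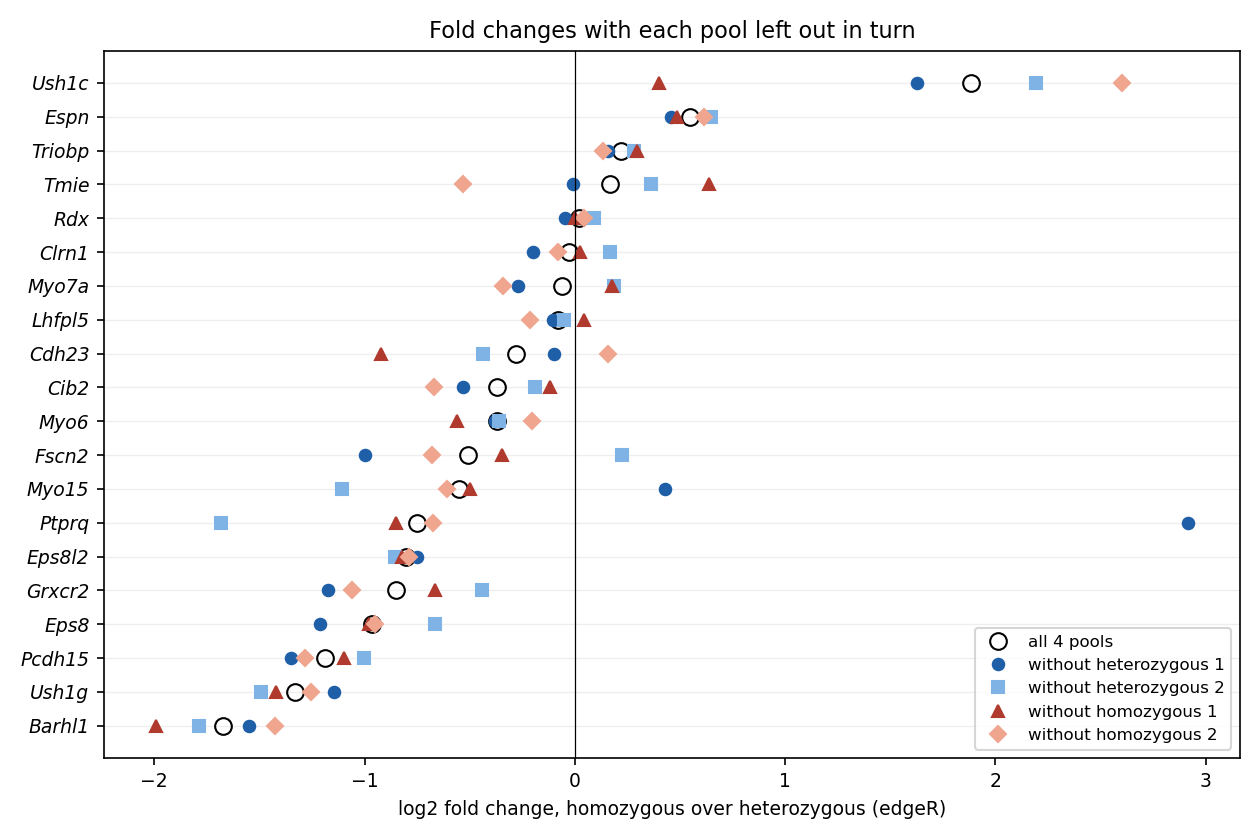
edgeR log2 fold change of the 20 genes tested (horizontal axis) with all 4 pools (open circle) and with each pool left out (filled symbols, named by the pool removed). Eps8l2 stays between -0.86 and -0.75, while Ptprq runs from -1.68 to 2.92 and Ush1c from 0.40 to 2.60.

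Promoters are shown for the 3 DESeq2-called genes found in the RefSeq table (GRCm38.p6, 300 bases from 250 before to 50 after the start) and for Barhl1, so that genes that moved in opposite directions can be set side by side. Where the table holds several starts of a gene, as for Espn and Barhl1, the one furthest upstream is shown. For Pcdh15 the RefSeq start lies inside the GENCODE gene, which begins further upstream at 73099342, so its window is the promoter of the RefSeq start and not of the first GENCODE transcript. Capitals mark CAGCTG, an E-box that basic helix-loop-helix factors such as ATOH1 can bind, and GGGCGG or its complement CCGCCC, the GC box. Both strands were searched, and CAGCTG reads the same on both. Espn is chr4:152152340-152152639 (minus strand), Eps8l2 chr7:141338752-141339051 (plus), Pcdh15 chr10:73821617-73821916 (plus) and Barhl1 chr2:28916619-28916918 (minus), each printed 5′ to 3′ along its gene.
Espn: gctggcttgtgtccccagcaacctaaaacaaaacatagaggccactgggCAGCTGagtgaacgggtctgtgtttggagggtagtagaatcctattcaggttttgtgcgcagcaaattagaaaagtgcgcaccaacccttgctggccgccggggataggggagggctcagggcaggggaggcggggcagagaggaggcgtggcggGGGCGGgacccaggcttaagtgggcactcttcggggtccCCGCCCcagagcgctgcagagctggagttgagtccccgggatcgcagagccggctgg
Eps8l2: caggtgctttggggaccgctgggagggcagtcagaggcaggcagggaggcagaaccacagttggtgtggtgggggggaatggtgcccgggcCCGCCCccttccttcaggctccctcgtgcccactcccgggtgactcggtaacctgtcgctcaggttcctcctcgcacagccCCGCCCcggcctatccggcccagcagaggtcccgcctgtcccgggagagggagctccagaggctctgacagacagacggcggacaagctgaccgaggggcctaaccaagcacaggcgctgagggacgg
Pcdh15: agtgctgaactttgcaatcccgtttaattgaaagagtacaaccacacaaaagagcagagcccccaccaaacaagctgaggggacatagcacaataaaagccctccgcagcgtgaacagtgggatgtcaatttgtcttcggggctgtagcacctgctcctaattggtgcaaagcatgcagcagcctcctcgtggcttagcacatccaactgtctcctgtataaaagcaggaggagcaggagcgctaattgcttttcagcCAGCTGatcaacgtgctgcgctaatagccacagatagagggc
Barhl1: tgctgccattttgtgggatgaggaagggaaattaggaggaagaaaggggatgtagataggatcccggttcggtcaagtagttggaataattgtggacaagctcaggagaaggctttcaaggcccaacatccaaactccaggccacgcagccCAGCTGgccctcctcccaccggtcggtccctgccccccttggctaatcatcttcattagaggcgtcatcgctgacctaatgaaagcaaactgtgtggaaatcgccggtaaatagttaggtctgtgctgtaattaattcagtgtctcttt

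Espn holds 1 CAGCTG and 2 GC boxes, Eps8l2 2 GC boxes, and Pcdh15 and Barhl1 1 CAGCTG each. The GC content of these windows was 62.7% for Espn and 69.0% for Eps8l2, against 50.7% for Pcdh15 and 50.3% for Barhl1. Of the 34 genes 27 were matched in the table, with 35 promoter windows, of which 11 hold CAGCTG and 17 the GC box. Of all 32851 promoter windows 16.3% hold CAGCTG and 35.7% the GC box. A match describes the letters of the window and is neither a site nor a cause.

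Other genes of the bundle and of hair cells were read from 2 further lists. Over all genes tested, 3.41% fell and 1.05% rose by DESeq2. Of 36 other bundle genes tested, 1 fell by DESeq2 and 0 rose, with a median log2 fold change of -0.02. The gene that fell was Atp2b2, the calcium pump of stereocilia, which neurons also make, at 173 and 148 CPM in heterozygous and 119 and 90.1 CPM in homozygous pools (-0.62 ± 0.16, DESeq2 adjusted p = 0.0269). Baiap2l1, an actin regulator of protrusions, was higher without passing DESeq2 (2.17 ± 0.53, from 10 and 4 counts in heterozygous and 34 and 32 in homozygous pools). So was Myo1h, a class I myosin (0.82 ± 0.22). Lower without passing were Tprn, taperin of the stereocilium base (-0.53 ± 0.19), Cdhr2, a protocadherin of microvilli (-2.14 ± 0.89), and Rab11fip2 (-0.16 ± 0.08). The summed level of the list was 6016 and 6108 CPM in heterozygous and 5695 and 5682 CPM in homozygous pools.

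Of 41 other hair cell genes tested, 7 fell and 1 rose by DESeq2, with a median log2 fold change of -0.14. Besides Otof, these were Cabp1, a calcium-binding protein (-1.05 ± 0.09), the calcium buffers Pvalb (-0.74 ± 0.11) and Calb1 (-1.12 ± 0.36), Smpx, a small muscle and hair cell protein (-3.27 ± 0.85), Rprm (-1.17 ± 0.27) and Rasd2 (-1.82 ± 0.62). Cacna1d, the calcium channel of the inner hair cell synapse, rose (0.46 ± 0.08, DESeq2 adjusted p = 0.0176). Smpx had 122 and 35 counts in heterozygous and 4 and 12 counts in homozygous pools, and its genotypes did not overlap. Named for a small edgeR p without passing DESeq2 were Rbm24, an RNA-binding protein of hair cells and muscle (-1.75 ± 0.38), and Insm1, a factor of embryonic outer hair cells and of new neurons (1.58 ± 0.37). The same held for Cacna2d2, a calcium channel subunit (0.34 ± 0.11), Cd164l2 (-0.998 ± 0.35) and Dll3, a Notch ligand (-1.29 ± 0.49). The summed level was 2712 and 2658 CPM in heterozygous and 2958 and 2535 CPM in homozygous pools, which overlapped. Several genes of this list are also made by other cells, and the part of those cells in these values was not tested.

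Lists of the neighbouring cells stand beside these values, and beside the 3.41% of all genes tested that fell and 1.05% that rose by DESeq2. Of 27 supporting cell genes tested, 4 fell and 2 rose by DESeq2, with a median log2 fold change of -0.25 and a summed level of 3141 and 3188 CPM in heterozygous and 3063 and 2577 CPM in homozygous pools. Of 30 neuronal genes 15 fell and 0 rose, with a median of -0.44 and a summed level of 11159 and 11137 CPM in heterozygous and 8099 and 7838 CPM in homozygous pools. Of 15 Schwann cell genes 9 fell and 0 rose, with a median of -0.59, at 30615 and 32691 against 19341 and 18572 CPM. No gene of the neuronal or Schwann cell lists was at 0 in all pools. The part of these lists in the values of the 34 genes was not tested.

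**Figure D5:**
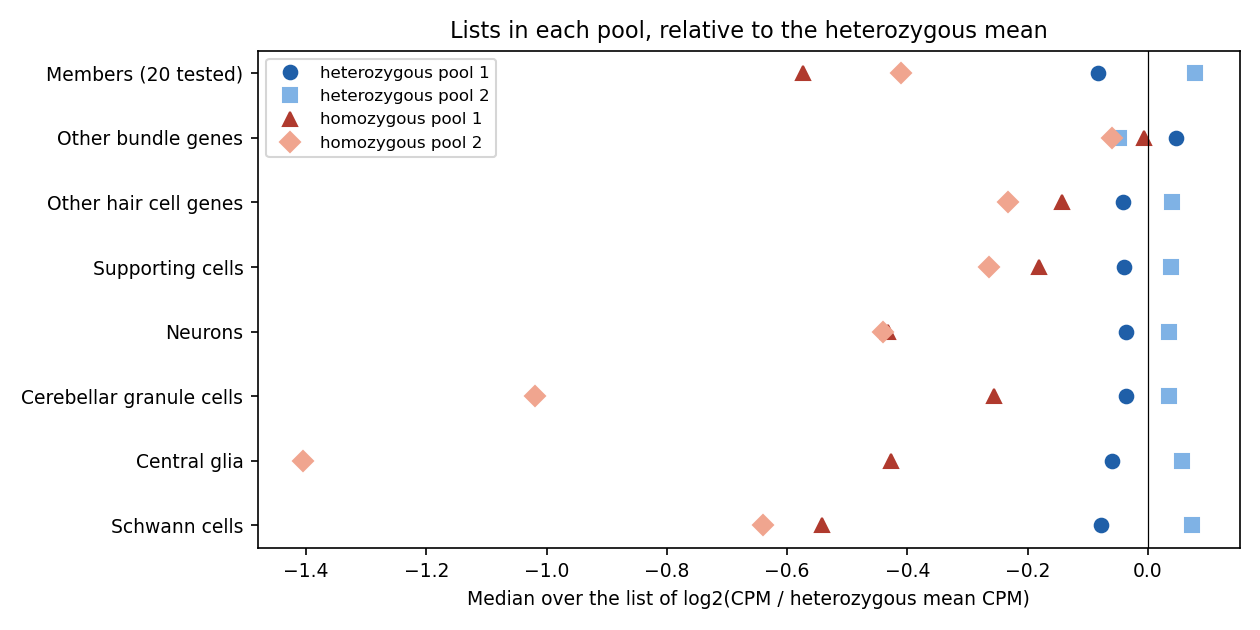
Median over each list of log2 CPM relative to the heterozygous mean (horizontal axis), with 1 symbol per pool. The 20 genes tested lie at -0.57 and -0.41 in homozygous pools 1 and 2, neurons and Schwann cells lie below 0 in both, and central glia lie at -0.43 and -1.41.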

How the data were processed

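Poly-A RNA of 4 cochlear pools was sequenced. The authors deposited estimated counts per gene, made with Salmon on mm10 per the submitters' processing notes. The sources used here do not give versions, annotation or strand. Per library, 92.4% to 92.8% of values were exactly whole. A second deposited table holds the DESeq2 comparison of the authors, with log2 fold change, a test score, p-value and mean normalised signal, per the file headers.

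Estimated counts were rounded and tested with edgeR 4.0.16 (quasi-likelihood F test, TMM scaling, filterByExpr, R 4.3.3) on genotype alone, with Benjamini-Hochberg adjustment over 15359 genes. Standard errors are those implied by F. DESeq2 1.42.0 (Wald test) was the alternative. CPM (counts per 1000000) use scaled library sizes. For medians per pool, CPM values below 0.05 were set to 0.05. Positions and exon lengths are from GENCODE M21 on GRCm38, which the submitters call mm10. Both tools were run on simulated counts in which some genes changed 2-fold or 4-fold, with 15280 genes tested. Of these changes edgeR recovered 55% and 83% and made 29 false calls. DESeq2 recovered 63% and 86% and made 60 false calls, so a gene named by DESeq2 alone may be a false call. The simulated counts took their spread from edgeR's fit to these data. In the data themselves edgeR called 0 genes and missed Otof (log2 fold change -3.62, adjusted p = 0.116). The simulated rates thus need not hold for the data, and 0 calls do not show an absence of change. Chi-square per degree of freedom between replicates was 29.6 and 48.7, above sampling noise.

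The genes and lists were chosen with earlier results of these data known. All 34 genes are named. Of other bundle and hair cell genes, those past DESeq2 are named, then up to 6 per list by edgeR p whose pools do not overlap, and Otof. Of other cell lists, genes past DESeq2 may be named, up to 4 a list. Some genes that the rule takes are left out here. Alternatives were other size factors, other filters, DESeq2, a replicate block and leaving out each pool.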

Additional observations from a re-analysis of the deposited data

How the results depend on the processing

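edgeR called 0 genes, 0 of the 34, and 0 of the other bundle and hair cell genes, but 685, 4 and 9 by DESeq2 and 495, 1 and 5 with a replicate block, under which Eps8l2 passed. The labels give the pools only a shared number (correlation of deviations 0.31), so this block is not a pairing. Leaving out each pool gave edgeR 0 to 60 genes. DESeq2 called 217, 171, 678 and 314 genes without heterozygous pools 1 and 2 and homozygous pools 1 and 2 in turn, 0 to 1 of the 34 and 3 to 6 others, and with the block 2 of the 34. With all pools kept, other size factors or filters changed no direction among the genes they kept, all 20 except under 1 CPM in 2 libraries, which kept 18 and dropped Myo15 and Ush1g. With a pool left out, 9 turned direction, with log2 fold changes of -0.34 to 0.19 for Myo7a, -1.11 to 0.43 for Myo15, -0.997 to 0.22 for Fscn2, -0.045 to 0.091 for Rdx, -0.92 to 0.16 for Cdh23, -0.20 to 0.17 for Clrn1, -1.68 to 2.92 for Ptprq, -0.21 to 0.044 for Lhfpl5 and -0.53 to 0.64 for Tmie. The median of the 20 ran from -0.57 to -0.23 and the log2 ratio of the summed CPM of the 34 from -0.15 to -0.028. The cause was not tested. A lone pool is then assumed to vary like the other genotype. At totals of 31509350 to 38090724 counts, differences in the 10 lowest genes were not detectable.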

Other observations

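The remaining lists gave few calls by DESeq2, which called 4.46% of all genes tested. Of 7 skeletal muscle genes tested, Ryr1, the calcium release channel, fell (log2 fold change -1.81 ± 0.20, DESeq2 adjusted p = 2.36e-07). It was at 9.25 and 8.59 CPM in heterozygous and 2.77 and 2.31 CPM in homozygous pools. Of the 7, 1 had both homozygous pools below both heterozygous pools and 0 had both above. The summed level of that list was 31.2 and 16.2 CPM in heterozygous and 12.3 and 10.7 CPM in homozygous pools. That sum includes Ryr1, and also Myh8 with 325 and 5 counts in heterozygous and 14 and 11 in homozygous pools. Of 11 genes of the stria vascularis and spiral ligament, Slc12a2, a chloride cotransporter, fell (-0.39 ± 0.09, DESeq2 adjusted p = 0.022). Of 7 immune and marrow genes, the adult globin gene Hbb-bs rose (1.82 ± 0.33, DESeq2 adjusted p = 0.0169), from 25 and 25 counts in heterozygous to 118 and 71 in homozygous pools. The far more abundant globin gene Hba-a1 had 10088 and 5188 counts in heterozygous and 12562 and 6228 in homozygous pools, which overlapped. Of 3 retinal photoreceptor genes and 1 vestibular nonsensory gene tested, 0 passed DESeq2.

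Strc, at 3, 0, 6 and 3 counts, has the antisense neighbour Ckmt1 over 0.161% of its exon length. Cib2 has Sh2d7 over 15.8% of it, at 7, 3, 3 and 7 counts, and Tmie has Als2cl over 7.89%, with a log2 fold change of -0.08 for Als2cl.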
